A study of Homo sapiens with 10 samples.

Results

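NEAT1, MALAT1, PVT1, KCNQ1OT1, NORAD and OIP5-AS1 are long non-coding RNAs (lncRNAs, transcripts without a long open reading frame), and their levels are described here in TPC-1 cells. The 6 genes were chosen by name, of 58735 genes and 16054 lncRNA genes in the tables. NEAT1 was chosen with its difference in the first 3 replicates known, so its values there are given as a description with no test. All 6 passed the filter on low counts in every comparison.

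TPC-1 is an established cell line from a human papillary thyroid carcinoma that carries a fusion of the RET receptor kinase gene. Its cells received an empty vector (EV, 5 libraries) or a vector for overexpression (OE, 5 libraries) of PTCSC3-AS1, a lncRNA, and total RNA was sequenced. Replicates 1 to 3 of each group stand in 1 deposited table, called set 1 here, and replicates 4 and 5 in another, called set 2. The sources do not say what separates the sets, whether both used the same vector, whether poly(A) selection was done or whether replicates were separate cultures, so p-values cover only the spread of the libraries at hand, part of which may be technical. The tables name no gene PTCSC3-AS1, and the OE labels could not be checked against its level.

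NEAT1 is the scaffold of paraspeckles, nuclear bodies built when its long isoform binds the proteins SFPQ, NONO and PSPC1. MALAT1 is transcribed from the neighbouring gene and collects in nuclear speckles, where splicing factors are stored. KCNQ1OT1 is an imprinted antisense RNA that silences neighbouring genes in cis, and PVT1 is a largely nuclear RNA of the MYC locus. NORAD and OIP5-AS1 (also called Cyrano) are mainly cytoplasmic: NORAD binds Pumilio proteins, which repress and destabilise mRNA, and OIP5-AS1 pairs with the microRNA miR-7 and directs its decay. Where in the cell each RNA lies comes from this general knowledge and was not measured here.

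The parts of the sequences behind these roles differ between the members. The long forms of NEAT1 and MALAT1 have no poly(A) tail; RNase P cuts them at their 3′ ends, which fold into a triple helix of U-rich and A-rich tracts. Those tracts are in capitals in the following stretches of 93 bases each (GENCODE 29 transcripts, GRCh38), MALAT1 from chr11:65506024-65506116 on the plus strand and NEAT1, the last bases of its long transcript, from chr11:65445448-65445540 on the plus strand.
MALAT1: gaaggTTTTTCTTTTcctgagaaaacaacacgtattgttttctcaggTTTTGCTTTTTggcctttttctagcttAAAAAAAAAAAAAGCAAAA
NEAT1: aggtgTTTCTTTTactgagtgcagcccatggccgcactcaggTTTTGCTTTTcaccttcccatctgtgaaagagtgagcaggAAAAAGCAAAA
Both share the run TTTTGCTTTT followed within 60 bases by AAAAGCAAAA. Searched on the RNA strand of the longest transcript of each of the 16054 lncRNA genes, this pattern was found in 2 (0.0125%), which were MALAT1 and NEAT1. Its letters were read from NEAT1 and are shared by MALAT1, so the search was bound to find these 2, and the share is a description. The short form of NEAT1 ends upstream with a poly(A) tail, and an annotated short transcript of 3441 bases does not hold the pattern.

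NORAD is shown by 3 of its repeats, each with a pair of Pumilio elements, TGTANATA, in capitals (GRCh38, minus strand, chr20:36049497-36049525, chr20:36048300-36048328 and chr20:36047664-36047692).
NORAD 1: tatctgTGTATATAgTGTACATAaaggac
NORAD 2: ctatacTGTATATAtTGTATATAtaacgg
NORAD 3: gtgctgTGTATATAgTGTATATAagcgga
On its RNA strand NORAD, 5339 bases long, held 15 such elements. Among 230 lncRNA transcripts at least as long, read over their first 5339 bases, 87 (37.8%) held at least 1 element and 3 (1.3%, NORAD among them) held 15 or more. Over their whole lengths, the long NEAT1 transcript held 6, KCNQ1OT1 9, OIP5-AS1 1 and MALAT1 0. OIP5-AS1 is shown by its site for miR-7 (GRCh38, plus strand, chr15:41300574-41300599), with the bases that pair with the microRNA in capitals, beside the mature miR-7-5p (RefSeq, GRCh38.p14) with its seed, bases 2 to 8, in capitals.
OIP5-AS1: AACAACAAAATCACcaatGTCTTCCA
hsa-miR-7-5p: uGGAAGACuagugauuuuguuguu
Of the 24 bases of miR-7-5p, 22 paired with the site, 8 at its 5′ end and 14 at its 3′ end, and 4 bases of the site face 2 of the microRNA in between. The octamer GTCTTCCA alone was found in 487 of the 16054 lncRNA transcripts (3.03%, RNA strand).

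The genes lie on 4 chromosomes of hg38. NEAT1 (ENSG00000245532, chromosome 11, 65422774 to 65445540, plus strand) and MALAT1 (ENSG00000251562, chromosome 11, 65497688 to 65506516, plus strand) are 52148 bases apart, each annotated as 1 merged exon. KCNQ1OT1 (ENSG00000269821, chromosome 11, 2608328 to 2699994, minus strand) lies inside KCNQ1 on the opposite strand, and KCNQ1 itself had 0 counts in all 10 libraries. PVT1 (ENSG00000249859, chromosome 8, 127794533 to 128101253, plus strand) has 21 merged exons. NORAD (ENSG00000260032, chromosome 20, 36045622 to 36050960, minus strand) has 1, and OIP5-AS1 (ENSG00000247556, chromosome 15, 41283990 to 41309737, plus strand) has 10. Of their exonic bases, 0% (NORAD) to 8.79% (PVT1) overlap another annotated gene, among them 470 bases of OIP5-AS1 shared with OIP5 on the opposite strand. The sources do not say whether counting used strand, so reads of such stretches cannot be told apart.

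Depth was 15761474 to 18066559 counts per library, in which 20630 to 22029 genes had a count. A count of 0 allows up to 3 counts, or 0.166 to 0.190 CPM (counts scaled by library size), which covers counting error only. On the first principal component (35.8% of the variance of the 1000 most variable genes) the sets stood apart, and EV replicate 2 stood apart on the second (14.4%, 22.2 against -10.7 to 8.37). The thyroid transcription factors PAX8 (359 to 479 CPM) and FOXE1 (13.9 to 30.6 CPM) and the keratins KRT8 and KRT18 were present in all libraries, while NKX2-1 and TSHR had 0 counts in all of them and EPCAM and CDH1 were at 0.319 CPM or lower. The 5 listed fibroblast markers, of which 2 were at 0 in each group, summed to 6.44 to 7.53 CPM in EV of set 1. They summed to 9.15 to 9.79 CPM in OE of set 1 and to 7.32 to 8.77 CPM in set 2. The 6 thyroid markers summed to 373 to 424 CPM in EV and 472 to 507 CPM in OE of set 1, and to 403 to 458 CPM in set 2. Leukocyte markers reached 1.61 CPM and endothelial ones 1.2 CPM.

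As a class, lncRNA genes took 0.696% to 0.828% of the counts of a library, and the 6 members took 9.74% to 12.8% of that. By CPM, which is not scaled by length, NORAD ranked 1st and NEAT1 2nd among lncRNA genes, OIP5-AS1 9th, MALAT1 10th, PVT1 27th and KCNQ1OT1 92nd. Between them stood other well known cytoplasmic or ribosome-associated lncRNAs such as GAS5 (179 CPM over all libraries) and SNHG5 (116 CPM).

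Per kilobase of the deposited gene length, the order of the members was different. NORAD had 55.5 ± 5.66 CPM per kilobase (SD, n = 10), above every library of every other member. MALAT1 (12.3 ± 5.53), NEAT1 (11.3 ± 2.78), OIP5-AS1 (8.69 ± 0.720) and PVT1 (6.77 ± 1.48 CPM per kilobase) followed, and neighbours in that order overlapped in their spread. KCNQ1OT1 had 0.136 ± 0.0360 CPM per kilobase over its 91667 bases, below every library of every other member.

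**Figure D1:**
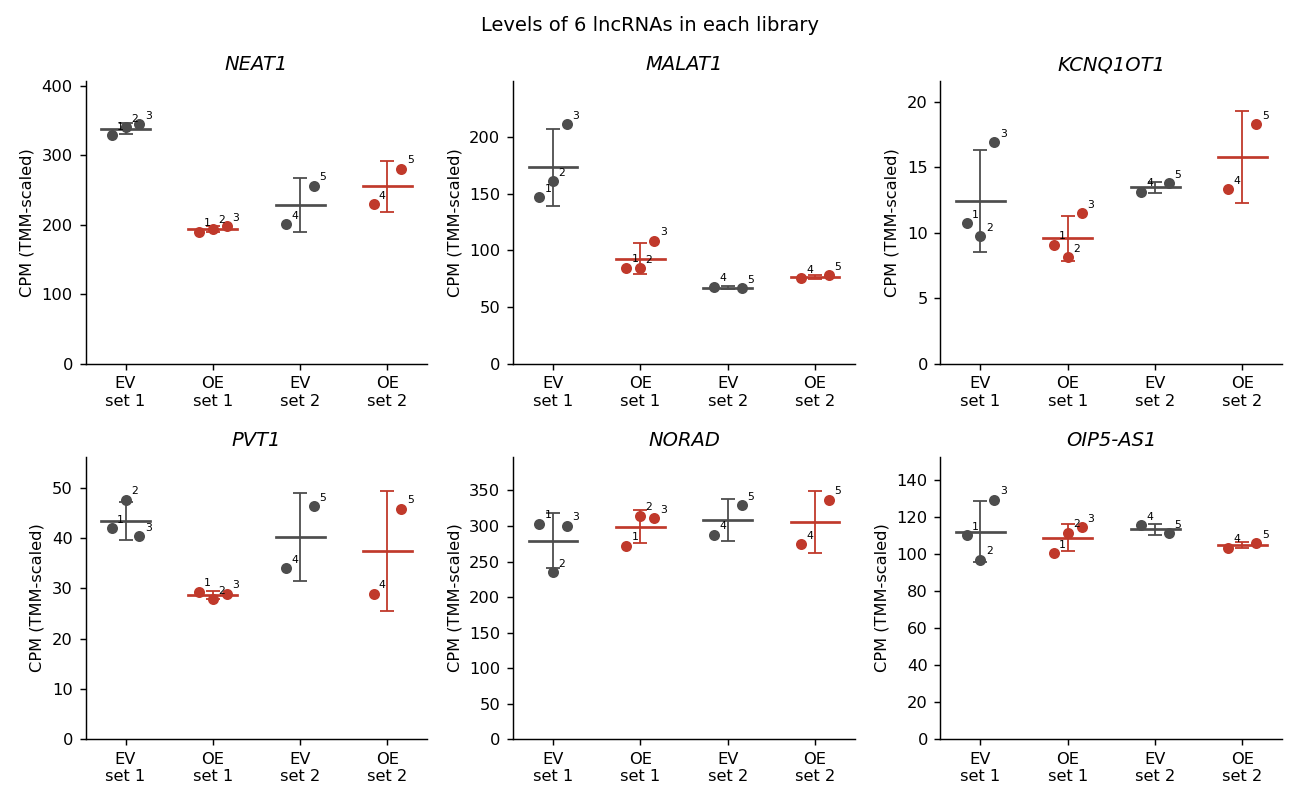
CPM (scaled by TMM factors, linear axes from 0) of the 6 lncRNAs in each library, with the replicate number beside each point, the group mean as a line and the SD as bars, for EV and OE in set 1 (n = 3) and set 2 (n = 2). NEAT1, MALAT1 and PVT1 were lower in all OE libraries of set 1 than in its EV libraries, whereas NORAD and OIP5-AS1 overlapped between the groups there.

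NEAT1 was at 329, 340 and 345 CPM in the EV libraries of set 1 and at 190, 194 and 198 CPM in its OE libraries. In set 2 it was at 201 and 256 CPM in EV and at 229 and 281 CPM in OE. The groups were far apart in set 1, with little spread inside each, and overlapped in set 2, where all 4 libraries lay between the OE and EV levels of set 1. By replicate number, OE of set 2 was higher than EV by 0.19 (replicate 4) and 0.13 (replicate 5) on the log2 scale. The group means were 338 ± 8.05 and 194 ± 3.98 CPM in set 1 (SD, n = 3) and 228 ± 39.1 and 255 ± 36.4 CPM in set 2 (SD, n = 2). On the log2 scale OE differed from EV by -0.81 in set 1 (SE 0.08), given with no test or interval because NEAT1 was chosen from it. In set 2, whose libraries the choice did not use, the difference was 0.16 (SE 0.14, interval at 95% -0.18 to 0.50, edgeR adjusted p = 1.0). The NEAT1 differences of the sets lay 0.97 apart (SE 0.17), and over both sets the value was -0.42 (SE 0.15), both given without a test since they hold the libraries of set 1. In bulk RNA, fewer cells with an RNA and less of it per cell cannot be told apart.

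MALAT1 was at 147, 161 and 212 CPM in the EV libraries of set 1 and at 85.0, 84.4 and 109 CPM in its OE libraries. In set 2 it was at 68.0 and 66.6 CPM in EV and at 75.4 and 78.1 CPM in OE. The groups did not overlap in either set, and they stood in opposite order: OE was lower in set 1 and higher in set 2. The difference was -0.91 in set 1 (SE 0.16, n = 3 per group, edgeR adjusted p = 0.16) and 0.19 in set 2 (SE 0.08, n = 2 per group, interval -0.01 to 0.39, adjusted p = 1.0), and neither passed the test. The difference between the sets, 1.11 (SE 0.22, adjusted p = 0.411), did not pass either, nor did the value over both sets of -0.48 (SE 0.18, adjusted p = 0.847), which passed without the filter on low counts (0.000195). In set 1 MALAT1 passed with DESeq2 (-0.91, adjusted p = 0.000109), with 1 dispersion over the 4 groups (0.0312), without the filter on low counts (3.79e-11) and without EV replicate 2 (-0.96, 7.05e-07), and the other alternatives reached up to 0.999. The difference between the sets passed with DESeq2 (0.00641), with the replicate number as a block (0.039), without the filter (4.5e-06) and without EV replicate 2 (0.0485).

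KCNQ1OT1 was at 10.7, 9.73 and 16.9 CPM in the EV libraries of set 1 and at 9.10, 8.15 and 11.5 CPM in its OE libraries. In set 2 it was at 13.2 and 13.8 CPM in EV and at 13.3 and 18.3 CPM in OE. Groups overlapped in both sets, and EV replicate 3 and OE replicate 5 were the high libraries. Its difference was -0.39 in set 1 (SE 0.23, edgeR adjusted p = 0.667), 0.24 in set 2 (SE 0.19, adjusted p = 1.0) and 0.62 between the sets (SE 0.34, adjusted p = 1.0). In set 1 it was -0.10 without EV replicate 3 and -0.16 with offsets for GC content and length, and the difference between the sets was 0.33 to 0.82 with 1 library left out.

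PVT1 was at 42.0, 47.6 and 40.4 CPM in the EV libraries of set 1 and at 29.4, 27.9 and 29.003 CPM in its OE libraries. In set 2 it was at 34.1 and 46.4 CPM in EV and at 28.98 and 45.9 CPM in OE. The groups stood apart in set 1, while in set 2 replicate 5 was high and replicate 4 low in both groups. The difference was -0.60 in set 1 (SE 0.10, edgeR adjusted p = 0.16), -0.10 in set 2 (SE 0.24, adjusted p = 1.0) and 0.50 between the sets (SE 0.25, adjusted p = 1.0), which was 0.11 without OE replicate 5, 0.28 without EV replicate 4 and 0.78 without OE replicate 4. Over both sets it was -0.40 (SE 0.14, adjusted p = 0.847). In set 1 PVT1 passed with DESeq2 (0.000689), without the filter (0.00825), without EV replicate 2 (-0.53, 0.000584) and with offsets for GC content and length, an alternative chosen after seeing the data (0.0191).

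NORAD was at 303, 235 and 300.4 CPM in the EV libraries of set 1 and at 273, 315 and 311 CPM in its OE libraries. In set 2 it was at 288 and 329 CPM in EV and at 274 and 337 CPM in OE. No group stood apart, and EV replicate 2 was the lowest library. The difference was 0.09 in set 1 (SE 0.12, interval -0.18 to 0.36), -0.01 in set 2 (SE 0.12, interval -0.30 to 0.27) and 0.05 over both (SE 0.09, interval -0.14 to 0.25, edgeR adjusted p = 0.947).

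OIP5-AS1 was at 110.4, 97.0 and 129 CPM in the EV libraries of set 1 and at 101, 112 and 115 CPM in its OE libraries. In set 2 it was at 116 and 112 CPM in EV and at 104 and 106 CPM in OE. The groups overlapped in set 1, and in set 2 OE was lower by less than the range of set 1. The difference was -0.05 in set 1 (SE 0.12, interval -0.33 to 0.22), -0.11 in set 2 (SE 0.08, interval -0.31 to 0.08) and -0.07 over both (SE 0.08, interval -0.24 to 0.10, edgeR adjusted p = 0.914).

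**Figure D2:**
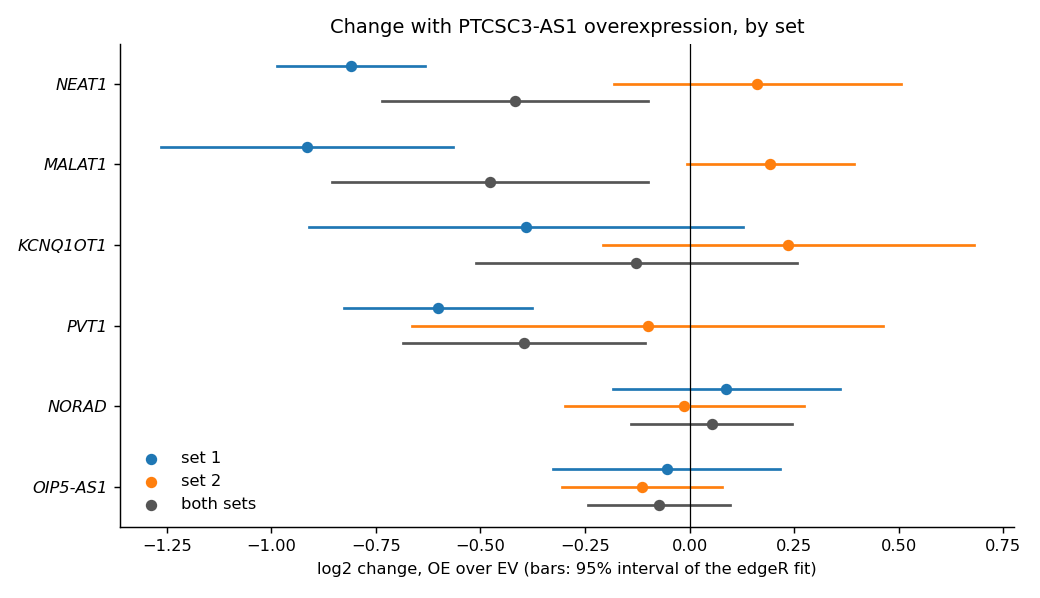
Log2 difference of OE from EV for the 6 lncRNAs in set 1, set 2 and over both sets, with bars for the 95% interval of the edgeR fit and a line at 0. The NEAT1 bars for set 1 and for both sets are no test, since NEAT1 was chosen from set 1. NEAT1 and MALAT1 lay near -0.81 and -0.91 in set 1 and at 0.16 and 0.19 in set 2, and the intervals of NORAD and OIP5-AS1 held 0 in each comparison.

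Counted over the members, 3 of 6 (NEAT1, MALAT1 and PVT1) were lower in all OE libraries of set 1 than in any of its EV libraries, where 7.82% of the 14340 genes tested were. NEAT1 was chosen from that contrast, and of the other 5 members 2 did so. The summed fibroblast and thyroid markers were higher in OE of set 1 without overlap, and their part in these differences was not tested. The share of all genes higher in OE without overlap is not given here, so these sums stand without a background. By edgeR's test 5 genes of set 1 were called (0.0349%), all lower, and none of the other 5 members was among them. The NEAT1 difference of set 1 lay between -0.82 and -0.79 with 1 library left out, which describes the same libraries it was chosen from. The count of genes called in set 1 was 0 without EV replicate 1 or OE replicate 1 or 2, 1 without EV replicate 3 or OE replicate 3, and 1578 (10.7%, with 4.62% lower) without EV replicate 2, a fit in which MALAT1 and PVT1 were among the genes called lower. In set 2 the groups did not overlap for 2 of 6 members, MALAT1 (higher) and OIP5-AS1 (lower), beside 25.0% of 14419 genes, a share near that of the members. Over both sets 0 of 6 were without overlap, beside 0.549% of 14217 genes.

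Over both sets the edgeR test called no gene (0%; 812 had an unadjusted p under 0.05, DESeq2 called 6 and limma-voom 0), and it called none in set 2 (0%; 158 unadjusted, DESeq2 1, limma-voom 0). The difference between the sets was called for 1 gene, which is no member (0.00649% of 15404). Of the differences in set 1 of the 5 members other than NEAT1, 4 lay below 0 and 1 above, with a median of -0.39 beside -0.01 over all genes tested. In set 2, 3 of these 5 lay below 0 and 2 above, with a median of -0.01 beside 0.0025 over all genes.

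Ratios of counts within a library need no scaling between libraries, and they separated the members by pair. The counts of NEAT1 were 1.99 ± 0.320 times those of MALAT1 in EV and 2.12 ± 0.260 times in OE of set 1 (SD, n = 3), and 3.40 ± 0.632 times in EV and 3.32 ± 0.392 times in OE of set 2 (SD, n = 2). EV and OE overlapped in this ratio in both sets, and the sets did not overlap (at most 2.30 in set 1 and at least 2.95 in set 2). NEAT1 over NORAD, a nuclear against a cytoplasmic RNA, was 1.23 ± 0.194 in EV and 0.651 ± 0.0416 in OE of set 1, and 0.737 ± 0.0569 and 0.835 ± 0.00165 in set 2. MALAT1 over NORAD was 0.626 ± 0.121 and 0.310 ± 0.0407 in set 1, and 0.219 ± 0.0240 and 0.254 ± 0.0304 in set 2. The 4 nuclear members summed to 1.46 ± 0.204 times the 2 cytoplasmic ones in EV of set 1 and to 0.798 ± 0.0532 times in OE, where no library overlapped. In set 2 they summed to 0.826 ± 0.0607 times in EV and 0.937 ± 0.0263 times in OE, without overlap and in the opposite order. NEAT1, chosen for its difference in set 1, held the largest part of the nuclear sum, so ratios with NEAT1 only describe set 1. Single genes stood without overlap for 7.82% of those tested in set 1 (lower in OE) and for 25.0% in set 2 (either direction). The EV libraries of set 1 were the only ones in which the summed counts of the nuclear members exceeded those of the cytoplasmic ones. Counts are not scaled by length, so these ratios do not compare numbers of molecules. Per kilobase in EV of set 1, NORAD had a mean of 52.3 CPM. MALAT1 had 19.6, NEAT1 14.8, PVT1 7.89 and KCNQ1OT1 0.136 CPM per kilobase there.

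**Figure D3:**
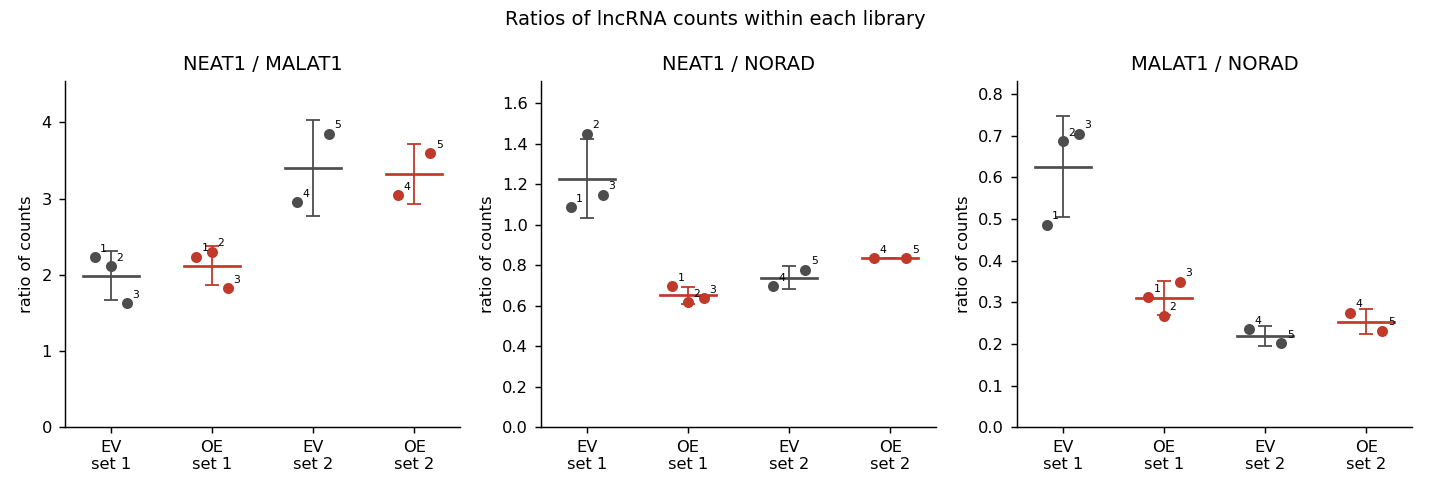
Ratio of counts within each library for 3 pairs of lncRNAs (linear axes from 0), with replicate numbers, group means as lines and the SD as bars, for EV and OE in both sets. NEAT1 over MALAT1 overlapped between EV and OE and was higher in set 2 (2.95 or more) than in set 1 (2.30 or less), whereas both ratios to NORAD were highest in EV of set 1.

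Set 2 was also compared with set 1, with the group as a term, which describes the split and names no cause. MALAT1 was lower in set 2 by 0.80 on the log2 scale (SE 0.18, edgeR adjusted p = 0.00923), and it was the 1 member of 6 called, beside 18.4% of all 14217 genes (9.17% lower). Its libraries of set 2 all lay below those of set 1, as for 7.88% of genes. Without EV replicate 4 the MALAT1 call was lost (-0.66, adjusted p = 0.059). Between the sets MALAT1 stood 1.35 lower in EV and 0.26 lower in OE on the log2 scale of the group means, so the gap was larger among EV than among OE libraries. NEAT1 differed by -0.07 (SE 0.15, adjusted p = 0.790) in the joint fit, with EV 0.58 lower and OE 0.39 higher in set 2. KCNQ1OT1 differed by 0.42 (SE 0.18, adjusted p = 0.121), PVT1 by 0.14 (SE 0.14), NORAD by 0.09 (SE 0.09) and OIP5-AS1 by -0.02 (SE 0.08), and none of these passed. KCNQ1OT1 passed without the filter (0.0279), with the offsets for GC content and length (0.0441) and without EV replicate 3 (0.57, 0.0152), and was at 0.25 without OE replicate 5.

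Other lncRNAs were read from lists of nuclear-retained and cytoplasmic RNAs. Of 12 nuclear-retained lncRNAs listed, 7 were tested: the 4 nuclear members, FTX (a regulator of the X inactivation centre), CDKN2B-AS1 (ANRIL, antisense in the INK4 locus) and LINC-PINT (a long intergenic RNA). In set 1 all 7 lay below 0, with a median of -0.48. The 3 that are not members had -0.48 (FTX, SE 0.13), -0.47 (CDKN2B-AS1, SE 0.33) and -0.08 (LINC-PINT, SE 0.27), and none passed the test. Without EV replicate 2, 6 of the 7 lay below 0 with a median of -0.53. FTX was called lower in that fit (-0.51, SE 0.14, edgeR adjusted p = 0.0171), beside 4.62% of all genes. In set 2 the 7 had a median of 0.13, with 3 below 0 (CDKN2B-AS1 at -0.26, FTX at -0.17 and PVT1 at -0.10).

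Of 15 cytoplasmic lncRNAs, 13 were tested, and in set 1 12 lay below 0 (NORAD was the exception), with a median of -0.15. The 11 that are not members had a median of -0.27. The lowest of them were UCA1, a lncRNA of urothelial and other carcinomas, at -0.79 (SE 0.21), EPB41L4A-AS1 at -0.56 (SE 0.17), and the snoRNA hosts SNHG1 at -0.51 (SE 0.13), ZFAS1 at -0.39 (SE 0.16) and GAS5 at -0.37 (SE 0.14). None passed the test. Without EV replicate 2, 7 of these 11 lay below 0 (median -0.17) and 2 were called lower, UCA1 (-0.93, SE 0.22) and SNHG1 (-0.35, SE 0.08). That fit called 4.62% of all genes lower, and 42 of 1572 lncRNA genes. With the offsets for GC content and length 10 of the 11 lay below 0 (median -0.26). Both lists can be set beside the 1389 lncRNA genes tested in set 1, of which 60.1% lay below 0 with a median of -0.10, and beside all genes, of which 52.3% lay below 0. In set 2 the cytoplasmic list had a median of -0.01, and all lncRNAs had -0.02 with 52.3% below 0. Between the sets ZFAS1 (0.72, SE 0.12), UCA1 (1.68, SE 0.16) and CYTOR (0.42, SE 0.10) were higher in set 2 and DANCR (-0.38, SE 0.12) was lower, each past the edgeR threshold. No others of the 13 tested passed, beside 18.4% of all genes called between the sets.

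**Figure D4:**
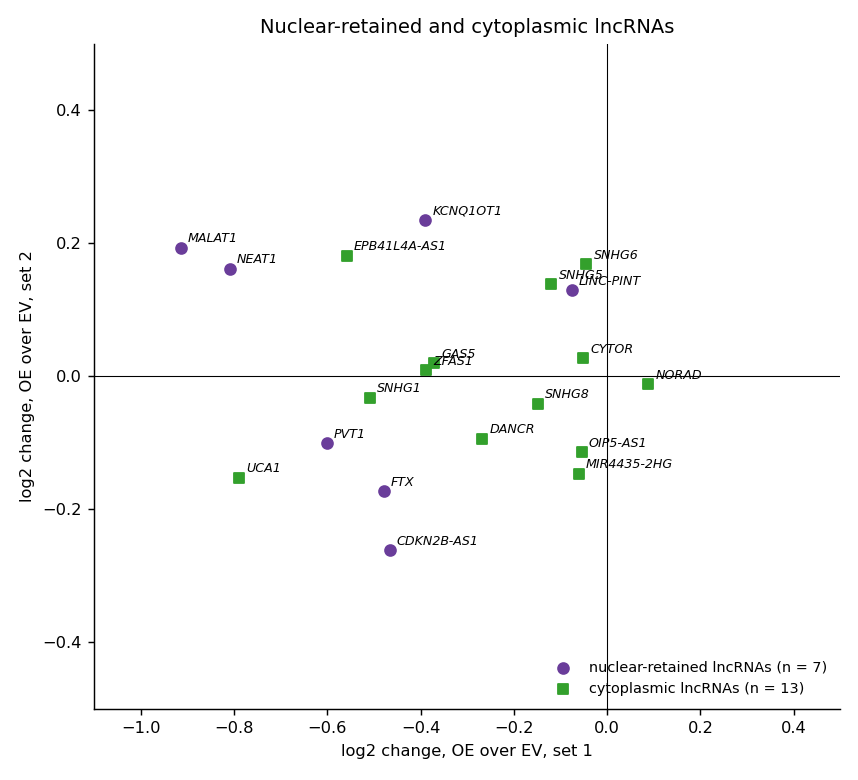
Log2 difference of OE from EV in set 1 (horizontal axis) against that in set 2 (vertical axis) for 7 nuclear-retained lncRNAs (circles) and 13 cytoplasmic ones (squares), 1 point per gene. In set 1 every point other than NORAD lies left of 0, from -0.91 for MALAT1, while in set 2 the points lie on both sides of 0, between -0.26 and 0.24.

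Proteins that act with NEAT1 or MALAT1 were read at the level of their mRNA. Of 22 paraspeckle proteins, all were tested, and none was called between OE and EV in any comparison. In set 1 12 lay above 0 and 10 below, with a median of 0.01, and MATR3, a nuclear matrix RNA-binding protein, had the lowest value (-0.58, SE 0.32). Its symbol stands for 2 identifiers in the tables, and the one with most counts was used. Between the sets PSPC1 (0.40, SE 0.06), SMARCA4, RBM14 and CPSF6 were higher in set 2 and HNRNPH3 (-0.40, SE 0.07) was lower by the edgeR test. In all, 5 of the 22 were called higher and 1 lower, beside 18.4% of all genes called between the sets. Of 15 speckle and SR splicing proteins, 12 lay below 0 in set 1 with a median of -0.13, and none was called in any comparison. Without EV replicate 2, 9 lay below 0 and 4 of these were called, beside 4.62% of all genes called lower in that fit. Of 10 subunits of RNase P and RNase Z, which cut the 3′ ends shown above and the tRNA-like pieces behind them, 6 lay below 0 in set 1, and none was called between OE and EV. Among 8 regulators of NEAT1 transcription, 7 lay above 0 in set 1 with a median of 0.06, and none was called between OE and EV.

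Genes that keep introns in the nucleus were listed beside the nuclear lncRNAs, since their unspliced RNA is held there. All 8 tested, which encode splicing kinases, cyclins L and other proteins, lay below 0 in set 1, with a median of -0.17. TAF1D, a subunit of the RNA polymerase I factor, was at 101 to 121 CPM in EV and 76.3 to 82.3 CPM in OE (-0.47, SE 0.10), the kinase CLK1 at 45.3 to 55.0 and 32.1 to 38.2 CPM (-0.45, SE 0.11) and cyclin L1 (CCNL1) at 122 to 129 and 95.5 to 99.4 CPM (-0.36, SE 0.08). The groups did not overlap for these 3, chosen after their values were seen, as for 7.82% of all genes in this direction, and none passed the edgeR test. Without EV replicate 2, 4 of the 8 were called lower (median -0.23), beside 4.62% of all genes. With the offsets for GC content and length 7 of the 8 lay below 0, with a median of -0.09, and in set 2 the median was 0.01. Between the sets CCNL1 was lower in set 2 (-0.48, SE 0.08, adjusted p = 0.00208), as MALAT1 was, and none of the other 7 passed. Of all genes, 9.17% were called lower in set 2.

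RNAs that need no poly(A) tail were listed because the long NEAT1 and MALAT1 forms have none. Of 16 listed, 9 were tested, and 8 of these were histone genes, some of which also make tailed mRNA. All 8 histone genes lay below 0 in set 1, with a median of -0.80 that earlier results of these data had already shown in a like list. None passed the edgeR test there. Without EV replicate 2, 7 of the 8 lay below 0 (median -0.72) and 5 were called lower, beside 4.62% of all genes. Summed over the 10 listed histone genes, EV libraries of set 1 held 74.2 to 95.2 CPM and its OE libraries 54.8 to 63.5 CPM. In set 2 EV held 34.8 to 38.0 CPM and OE 32.9 to 39.4 CPM. The histone sum was thus highest in the libraries in which NEAT1 and MALAT1 were highest. It was lower throughout set 2, where 6 of the 8 were called lower than in set 1 (median -1.34), beside 9.17% of all genes. MALAT1 too was lowest in set 2, but NEAT1 was lower in OE of set 1 (190 to 198 CPM) than in set 2 (201 to 281 CPM). The part of the histone sum in the NEAT1 and MALAT1 results was not tested. The summed mitochondrial ribosomal RNAs were at 6168 to 7346 CPM in EV and 5190 to 5264 CPM in OE of set 1, and overlapped in set 2; their part in the results was not tested.

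Genes on the chromosome next to NEAT1 and MALAT1 gave values on the other side of 0 in set 1. Of 9 tested genes around NEAT1 and MALAT1, 8 lay above 0 there, with a median of 0.14. With the offsets for GC content and length 5 of them lay below 0, with a median of -0.0008. Without EV replicate 2, 1 of 10 tested lay below 0, with a median of 0.27. In that fit 2 of the 10 were called, none of them lower, beside 10.7% of all genes called. EHBP1L1 was at 96.5 to 121 CPM in EV and 133 to 150 CPM in OE (0.39, SE 0.10), and FRMD8, the gene next to NEAT1, at 58.6 to 61.2 and 69.3 to 74.4 CPM (0.26, SE 0.09). Neither passed. Between the sets POLA2, FRMD8, SLC25A45 and SSSCA1 were higher in set 2 by the edgeR test, where MALAT1 was lower. They were 4 of 9 tested, beside 18.4% of all genes called between the sets in either direction.

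MYC, upstream of PVT1, was at 273 to 290 CPM in EV and 240 to 260 CPM in OE of set 1 (-0.16, SE 0.08, edgeR adjusted p = 0.597) and 0.08 higher in OE of set 2 (SE 0.08). The counts of PVT1 were 0.155 ± 0.00913 of those of MYC in EV and 0.115 ± 0.00246 in OE of set 1, without overlap, and 0.135 ± 0.0261 and 0.119 ± 0.0385 in set 2, with overlap. PVT1 by itself was also lower in OE of set 1 without overlap, as were 7.82% of the genes tested. Between the sets MYC was 0.21 higher in set 2 (SE 0.07, adjusted p = 0.0389), beside 18.4% of all genes called in that comparison. Of 8 tested imprinted neighbours of KCNQ1OT1, 7 lay above 0 in set 1, with OSBPL5, a lipid transfer protein, highest (0.65, SE 0.14), and CDKN1C, the cell cycle inhibitor p57, at 0.11 (SE 0.16); none was called between OE and EV. Of 12 partners of NORAD, which include the Pumilio proteins and mRNAs they bind, 8 lay below 0 in set 1 with a median of -0.05, and of 5 tested neighbours and partners of OIP5-AS1 3 did, with a median of -0.0027. None of either was called between OE and EV.

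Between the sets several of these genes passed the edgeR test, as did 18.4% of all 14217 genes. Of 12 NORAD partners 2 passed, and of 10 RNase P and RNase Z subunits 2, shares near that of all genes. Of 8 regulators of NEAT1 transcription 1 was higher and 3 were lower. Of 8 neighbours of KCNQ1OT1 2 were higher and 2 lower, and in the OIP5-AS1 list 2 of 5 were lower. Among regulators of NEAT1 transcription, EPAS1, the hypoxia factor HIF-2 alpha, was lower in set 2 by 0.46 on the log2 scale (SE 0.11), ATF2 by 0.38 (SE 0.08) and RUNX1 by 0.32 (SE 0.10). RNase P subunits POP1 (0.34, SE 0.06) and RPP25 (0.76, SE 0.18) were higher in set 2, as were the mRNAs of CDKN1B (0.23, SE 0.07) and E2F3 (0.21, SE 0.07) in the NORAD list. Around KCNQ1OT1, CDKN1C (0.55, SE 0.16) and OSBPL5 (0.48, SE 0.14) were higher and PHLDA2 (-0.50, SE 0.12) and NAP1L4 (-0.26, SE 0.08) lower. In the OIP5-AS1 list NUSAP1 (-0.47, SE 0.13) and CHP1 (-0.28, SE 0.06) were lower.

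Likeness to each member was measured by Pearson's r of log2 CPM over the 10 libraries with the mean of each set removed, among 12089 genes. The libraries share their depth and preparation, r is a description, and the OE to EV gap of set 1 carries much of it. For NEAT1 the most alike were CCNL1 (cyclin L1, r = 0.958), KLF5 (a Krüppel-like transcription factor, 0.953), CEP95 (a centrosomal protein, 0.949), NR1D1 (a repressor of the circadian clock, 0.945) and MPP3 (a membrane scaffold, 0.941). Their own differences were -0.36, -0.53, -0.46, -0.80 and -0.50 in set 1 and 0.04, 0.20, 0.18, 0.06 and 0.10 in set 2, in the same order. For MALAT1 they were WASHC2A (0.968), CCDC84 (0.953) and AC018638.5 (0.947), and for PVT1 THAP1 (0.961), SUZ12P1 (0.958) and APBB3 (0.952).

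NORAD was most like the chloride transporter CLCN3 (0.981), ATAD2 (0.969) and SGMS2 (0.967), with differences of 0.06, 0.08 and 0.04 in set 1 and 0.02, -0.02 and 0.04 in set 2, in the same order. KCNQ1OT1 was most like KDM3A (0.918), RGS17 (0.914) and FAM126B (0.910), and OIP5-AS1 most like SPIN1 (0.961), PAX6 (0.946) and NFIB (0.946). Among the members, NEAT1 and MALAT1 had r = 0.892, NEAT1 and PVT1 0.873, MALAT1 and KCNQ1OT1 0.755, and NEAT1 and NORAD -0.11.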

How the data were processed

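The submitters' processing notes name the build hg38 and the tools HISAT2 2.0.5, featureCounts 1.5.0-p3, fastp, CASAVA 1.8 and DESeq2 1.20.0, with no role or strand setting given. Per the file headers, the authors deposited raw counts per gene and library in 2 tables, and the values are whole numbers. Another 14 per-library columns (FPKM or normalized values) were left out. All 58735 genes have the same start and end in GENCODE 29.

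The members and gene lists were chosen with earlier results of these data known. OE and EV were compared with edgeR 4.0.16 (R 4.3.3; quasi-likelihood test, TMM scaling, filterByExpr, Benjamini-Hochberg adjusted p under 0.05 over all genes tested), over both sets with the set as a term and within each set. An interaction term tested the difference between sets. SEs are those implied by the test. Alternatives were DESeq2 1.42.0, limma-voom 3.58.1, DESeq2 size factors, library size alone, no filter, the replicate block, 1 dispersion for 4 groups, each library left out and, chosen after seeing the data, offsets for GC content and length. The fits were tested on simulated data. No library copied another.

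Named genes are all members, list members past the threshold (up to 4 per list) or otherwise those of lowest p (3 per list), and the most alike genes (5 for NEAT1, 3 for the others, mean log2 CPM of at least 1). Other names were chosen after their values were seen.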

Additional observations from a re-analysis of the deposited data

Results flagged for a closer look

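In 2 of 12 groups checked (6 lncRNAs in 5 EV and 5 OE libraries) 1 library lay far from the rest, by a rule that chance meets in about 1 in 20 groups. MALAT1 in OE replicate 3 was at 108.6 CPM, while the other OE libraries lay between 75.4 and 85.0 CPM. PVT1 in OE replicate 5 was at 45.89 CPM, while the other OE libraries lay between 27.9 and 29.4 CPM.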

How the results depend on the processing

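Of the alternatives, 408 values kept direction and side of the threshold, 21 passed it newly, 8 no longer did and 19 turned. Counts of genes called moved most. Over both sets DESeq2 called 6 and no filter 23. In set 1 DESeq2 called 76, no filter 90, 1 dispersion for 4 groups 8 and the GC and length offsets 12. Leaving out 1 library of set 1 gave 0 to 1578 calls, 1578 of them without EV replicate 2. In set 2 DESeq2 called 1 and no filter 12, and leaving out 1 library gave 0 to 1. For the difference between sets DESeq2 called 9, no filter 28 and the offsets 3, and leaving out 1 library gave 0 to 8. For set 2 against set 1 leaving out 1 library gave 1312 to 3850.

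The replicate block gave 1 call in set 1, 71 in set 2 and 3 for the difference between sets. Deviations of libraries with the same number correlated at -0.11, 0.0035 and 0.16 in set 1, so the numbers were not taken to pair its libraries. In set 2 the value was 0.314, and -0.314 for unlike numbers, its opposite by construction with 2 libraries per group. Whether set 2 is paired cannot be told, and its main fit used no pairing. With the block no member passed in set 2, and NEAT1 there was 0.16 (edgeR adjusted p = 0.197).

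Values near 0 turned. With the offsets KCNQ1OT1 over both sets was 0.0193, OIP5-AS1 in set 1 0.0178 and NORAD in set 2 0.0104. With 1 library left out, NORAD ranged from -0.0083 to 0.10 over both sets, -0.0177 to 0.155 in set 1, -0.17 to 0.13 in set 2 and -0.28 to 0.021 between sets. KCNQ1OT1 ranged from -0.27 to 0.0579 over both and -0.0123 to 0.44 in set 2. OIP5-AS1 ranged from -0.14 to 0.0661 in set 1 and -0.19 to 0.0182 between sets. In set 2 NEAT1 ranged from -0.0055 to 0.35 and PVT1 from -0.47 to 0.19. Set 2 against set 1 gave -0.24 to 0.11 for NEAT1, -0.0689 to 0.27 for PVT1 and -0.0637 to 0.0265 for OIP5-AS1. The cause was not tested. KCNQ1OT1, the lowest member, had 8.15 to 18.3 CPM, the thinnest counts here.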
